A study of Homo sapiens with 9 samples.

Results

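INHBE, GDF15, STC2, ANGPTL4, VGF and ADM2 encode 6 secreted factors that were grouped as stress-induced. The 6 genes are described here across all 9 libraries of a human cell line. They are 6 of the 64253 genes in the deposited table, found by symbol, and all 6 were among the 16366 genes that passed the filter on low counts. INHBE, ANGPTL4, STC2 and VGF were picked for their changes in these same libraries, so their levels and fold changes are given as a description with no test. GDF15 and ADM2 were not stated to be picked in that way and are tested over all genes, but all 6 were grouped with earlier results of these data known, so their p-values are not independent of that choice.

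The RNA came from EPC2, which the labels call a normal squamous line of the human esophagus, kept in keratinocyte medium with pituitary extract and epidermal growth factor. One set of cultures received a FOXF1 plasmid with Lipofectamine 2000, a lipid that carries DNA into cells. Another received an empty vector with the same lipid, and the last was left untreated. Each group had 3 libraries, named as biological triplicates in the design text, and p-values here rest on how far such libraries of a single line lay apart. No group received the lipid alone, so lipid and vector DNA cannot be told apart.

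Under stress, cells slow translation by phosphorylating eIF2alpha, and the transcription factor ATF4 then drives a set of genes known as the integrated stress response. Low oxygen acts through a separate factor, the hypoxia-inducible factor. Several of the 6 genes are known targets of these pathways in other cells. INHBE encodes the beta E subunit of activin E, a liver-derived ligand of the TGF-beta superfamily. GDF15 is a distant relative in that superfamily that acts on food intake through the hindbrain receptor GFRAL with its partner RET. STC2 encodes stanniocalcin 2, which inhibits the protease PAPP-A and thereby keeps insulin-like growth factors bound. ANGPTL4 inhibits lipoprotein lipase. ADM2 encodes adrenomedullin 2, also called intermedin, a peptide of the calcitonin family. VGF encodes a neurosecretory precursor that is cut into several peptides.

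Promoter sequences of VGF and ANGPTL4 are shown. Of the 5 of the 6 genes matched in the RefSeq table (GRCh38.p14), they alone held any of the 3 stress-related letter strings searched for. The windows run from 250 bases before to 50 after the RefSeq start, written 5′ to 3′ on the gene's strand, with matches in capitals. VGF is at chr7:101165520-101165819 on the minus strand, and ANGPTL4 at chr19:8363905-8364204 on the plus strand.
VGF: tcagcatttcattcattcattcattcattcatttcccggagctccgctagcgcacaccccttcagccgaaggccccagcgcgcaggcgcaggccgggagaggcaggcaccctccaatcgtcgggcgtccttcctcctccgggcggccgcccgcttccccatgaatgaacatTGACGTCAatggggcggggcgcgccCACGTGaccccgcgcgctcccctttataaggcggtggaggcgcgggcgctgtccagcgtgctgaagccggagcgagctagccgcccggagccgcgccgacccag
ANGPTL4: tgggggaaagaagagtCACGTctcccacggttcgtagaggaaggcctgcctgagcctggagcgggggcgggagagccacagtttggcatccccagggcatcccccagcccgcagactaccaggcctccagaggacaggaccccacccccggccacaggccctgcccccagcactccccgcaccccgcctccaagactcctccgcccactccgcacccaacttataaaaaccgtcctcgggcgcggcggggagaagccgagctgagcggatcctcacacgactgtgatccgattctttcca
The VGF window held TGACGTCA, the cyclic AMP response element, at -79 to -72 from the start. It also held ACGTG, a form of the core of the hypoxia response element, on both strands at -54 to -49, where the matches overlap as CACGTG. The ANGPTL4 window held ACGTG on the minus strand at -234 to -230. No match to TGATGNAA, the composite site of ATF4 and C/EBP factors, was found in any of the 5 windows. GDF15, STC2 and ADM2 held none of the 3 letter strings. GCGTG, another form of the hypoxia core, was not searched for, so its share over all windows is not known. It occurs in the STC2, ADM2 and VGF windows, and nothing is read from that. Searched on both strands of 34794 promoter windows of that length, TGACGTCA was in 1.84%, ACGTG in 21.4% and TGATGNAA in 3.63%. These matches are letters in a window and not measured sites.

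Between 34390666 and 39973289 reads were counted per library, so a gene without a read could lie at up to 0.0751 to 0.0872 CPM (its reads relative to the library's total), taking 3 counts as the limit, which covers counting error only. FOXF1 itself had 367, 184 and 141 reads with its plasmid, against 0, 0 and 6 with the empty vector and 1, 0 and 0 in untreated cells, and reads of the plasmid and of the chromosomal gene are not separated. Mitochondrial genes took 13.7 to 14.7% of the reads with the FOXF1 plasmid, 10.3 to 11.7% with the empty vector and 18.6 to 22.4% in untreated cells. The squamous markers TP63 and KRT5 had 0 reads in all 9 libraries and 8 to 19 reads per library. The basal squamous list they belong to summed to 74.5 to 82.6 CPM with the FOXF1 plasmid, 71.2 to 84.1 CPM with the empty vector and 65.7 to 70.9 CPM in untreated cells, nearly all from the integrin gene ITGB4. Squamous differentiation markers summed to at most 0.113 CPM per library. Apart from ITGB4, these low levels do not match the squamous line that the labels name, and the identity of the cells was not tested. Simple-epithelium markers summed to 3943 to 4198, 3437 to 3856 and 4045 to 4676 CPM in the same order of groups. With the empty vector over untreated cells, where 9.37% of all genes tested were called lower, 2 of the 5 markers were. These were KRT18, at -0.41, and KRT7, at -0.25 (edgeR, adjusted p = 0.000191 and 0.012), the call of KRT7 being lost with library totals in place of TMM and without untreated replicate 1 or empty-vector replicate 2 or 3. Their part in the results was not tested. In such bulk samples, fewer cells of a type and less RNA per cell cannot be told apart.

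INHBE (ENSG00000139269; GRCh38 chromosome 12, 57452323 to 57459280, plus strand) had 677, 719 and 813 reads with the FOXF1 plasmid, 824, 1051 and 938 with the empty vector, and 173, 198 and 209 in untreated cells. On libraries scaled by TMM, edgeR's correction for composition, this gave 19.9 ± 2.66 CPM with the FOXF1 plasmid, 22.1 ± 1.56 CPM with the empty vector and 5.43 ± 0.504 CPM in untreated cells (SD, n = 3 each). Every transfected library lay above every untreated library, and the ranges of both transfected groups overlapped. The fitted log2 fold change was 2.03 ± 0.12 (SE) for the empty vector over untreated cells, a ratio of 4.08. It was 1.87 ± 0.121 for the FOXF1 plasmid over untreated cells and -0.16 ± 0.109 for the FOXF1 plasmid over the empty vector.

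GDF15 (ENSG00000130513; chromosome 19, 18374731 to 18389176, plus strand), the other ligand of the TGF-beta superfamily, had the fewest reads of the 6 genes. It had 45, 65 and 53 reads with the FOXF1 plasmid, 43, 73 and 62 with the empty vector, and 11, 4 and 14 in untreated cells. The highest untreated library was still below the lowest transfected one. Its mean was 1.48 ± 0.401 CPM with the FOXF1 plasmid, 1.39 ± 0.289 CPM with the empty vector and 0.273 ± 0.147 CPM in untreated cells (SD, n = 3 each). GDF15 rose with the empty vector, by a log2 fold change of 2.35 ± 0.408 (SE) over untreated cells (edgeR's quasi-likelihood test, Benjamini-Hochberg adjusted p = 9.98e-05). With the FOXF1 plasmid it rose by 2.42 ± 0.409 over untreated cells (edgeR, adjusted p = 0.000177). No difference passed the test between the FOXF1 plasmid and the empty vector, where the log2 fold change was 0.08 with an approximate 95% interval of -0.58 to 0.74 (edgeR, adjusted p = 0.966). The gene spans the microRNA gene MIR3189, which had 0 counts and shares no exonic base with it.

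STC2 (ENSG00000113739; chromosome 5, 173314713 to 173329503, minus strand) had the most reads. They numbered 4016, 3712 and 3761 with the FOXF1 plasmid, 4215, 4630 and 4552 with the empty vector, and 1694, 1779 and 1618 in untreated cells. Levels were 103 ± 5.3 CPM with the FOXF1 plasmid, 106 ± 0.637 CPM with the empty vector and 47.7 ± 1.63 CPM in untreated cells (SD, n = 3 each). The 3 empty-vector libraries were the tightest of any group for any of the 6 genes, at 0.603% coefficient of variation. Untreated libraries lay below all transfected ones, and the FOXF1 plasmid range held the whole empty-vector range. The log2 fold change was 1.15 ± 0.066 (SE) for the empty vector and 1.11 ± 0.066 for the FOXF1 plasmid, each over untreated cells, and -0.04 ± 0.064 for the FOXF1 plasmid over the empty vector.

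ANGPTL4 (ENSG00000167772; chromosome 19, 8363289 to 8374373, plus strand) had 717, 575 and 483 reads with the FOXF1 plasmid, 660, 700 and 568 with the empty vector, and 226, 127 and 117 in untreated cells. Its means were 15.9 ± 2.63 CPM, 15.2 ± 1.81 CPM and 4.41 ± 1.74 CPM in the FOXF1 plasmid, empty-vector and untreated groups (SD, n = 3 each). Transfected libraries lay between 12.9 and 17.8 CPM, and all were above the highest untreated library, at 6.42 CPM. That library, untreated replicate 1, stood apart from the others at 3.5 and 3.32 CPM. The log2 fold change over untreated cells was 1.79 ± 0.175 (SE) for the empty vector and 1.85 ± 0.176 for the FOXF1 plasmid. Without untreated replicate 1 these were 2.15 and 2.20. For the FOXF1 plasmid over the empty vector the log2 fold change was 0.06 ± 0.16. ANGPTL4 shares 1 exonic base with the antisense gene RAB11B-AS1, which had 21 to 98 reads per library.

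ADM2 (ENSG00000128165; chromosome 22, 50481556 to 50486440, plus strand) had 529, 468 and 506 reads with the FOXF1 plasmid, 496, 600 and 538 with the empty vector, and 254, 321 and 235 in untreated cells. It averaged 13.5 ± 0.312 CPM with the FOXF1 plasmid, 12.9 ± 0.638 CPM with the empty vector and 7.57 ± 1.13 CPM in untreated cells (SD, n = 3 each). No transfected library fell into the untreated range. ADM2 rose by a log2 fold change of 0.77 ± 0.123 (SE) with the empty vector over untreated cells (edgeR, adjusted p = 3.98e-05). With the FOXF1 plasmid it rose by 0.83 ± 0.124 over untreated cells (edgeR, adjusted p = 3.42e-05). The FOXF1 plasmid and the empty vector did not differ past the threshold, at 0.06 with an approximate 95% interval of -0.17 to 0.30 (edgeR, adjusted p = 0.918). The interval leaves out a difference as large as either rise over untreated cells.

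VGF (ENSG00000128564; chromosome 7, 101162509 to 101165593, minus strand) had the other pattern, with its highest levels in the FOXF1 plasmid group. Reads were 292, 229 and 277 with the FOXF1 plasmid, 192, 193 and 212 with the empty vector, and 171, 203 and 185 in untreated cells. The gene averaged 7.12 ± 0.343 CPM with the FOXF1 plasmid, 4.71 ± 0.295 CPM with the empty vector and 5.23 ± 0.367 CPM in untreated cells (SD, n = 3 each). All 3 FOXF1 plasmid libraries, at 6.74 to 7.38 CPM, lay above the other 6, and the empty-vector and untreated ranges overlapped. Its log2 fold change was 0.60 ± 0.151 (SE) for the FOXF1 plasmid over the empty vector, a ratio of 1.51. Over untreated cells it was 0.45 ± 0.152 for the FOXF1 plasmid and -0.15 ± 0.154 for the empty vector. With library totals in place of TMM, the last value was 0.09, below the median of 0.29 that all genes then had, and the others were 0.50 over the empty vector and 0.59 over untreated cells.

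**Figure D1:**
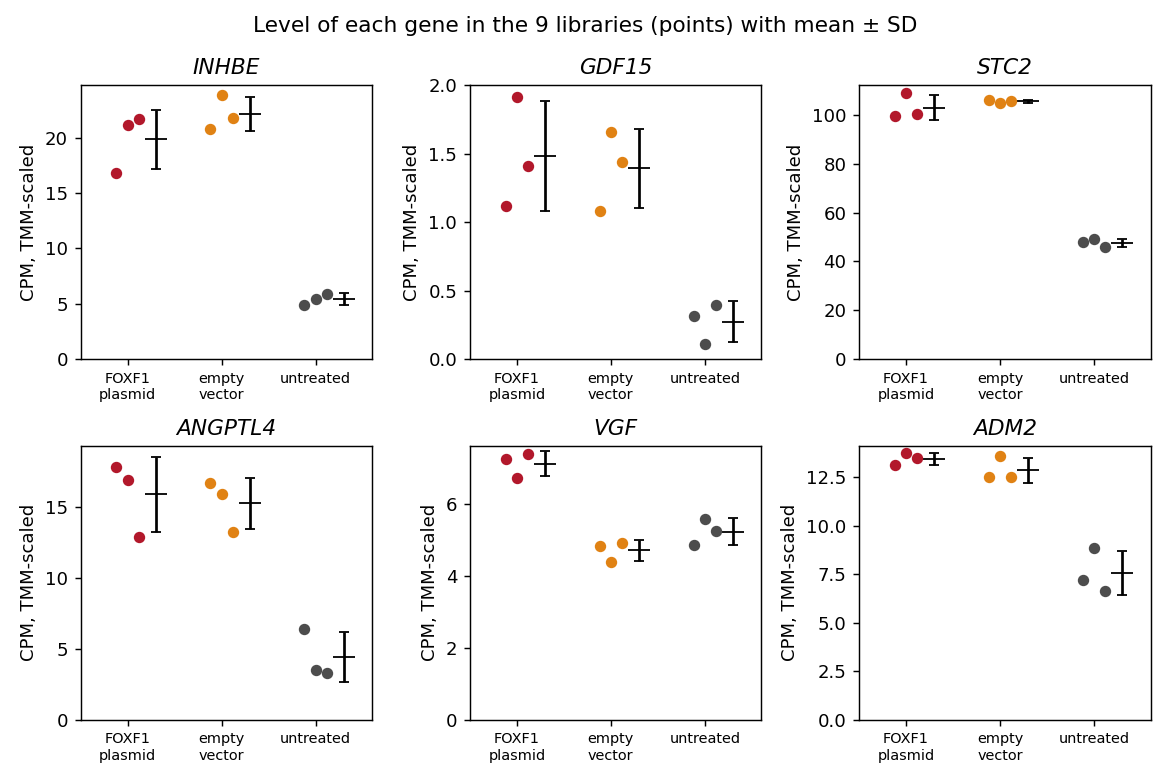
Levels of the 6 genes in CPM on TMM-scaled library sizes, with a point for each of the 9 libraries and the mean ± SD of the 3 libraries of each group beside them. For 5 genes the FOXF1 plasmid and empty-vector points overlap above the untreated points, and for VGF the FOXF1 plasmid points stand above both other groups.

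With the empty vector, 5 of the 6 genes were above every untreated library, VGF being the exception, beside 17.4% of all genes tested. With the FOXF1 plasmid, 6 of the 6 were above every untreated library, beside 14.1% of all genes, and 1 of the 6, VGF, was above every empty-vector library, beside 7.33%. Since 4 of them were picked on these contrasts, nothing is read from those counts or from the medians that follow. The median log2 fold change of the 6 was 1.47 for the empty vector over untreated cells, against 0.04 over all genes. It was 1.48 against 0.02 for the FOXF1 plasmid over untreated cells, and 0.06 against -0.01 for the FOXF1 plasmid over the empty vector. The comparisons with untreated cells share the untreated libraries, and the others share the empty-vector or the FOXF1 plasmid libraries.

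GDF15 and ADM2, the 2 tested genes, were called higher in both comparisons with untreated cells. Of the 16366 genes tested, the empty vector over untreated cells gave 1676 called higher (10.2%) and 1533 lower (9.37%). The FOXF1 plasmid over untreated cells gave 757 higher (4.63%) and 637 lower (3.89%). Between the FOXF1 plasmid and the empty vector, edgeR gave 9 called higher (0.055%) and 0 lower (0%). An unadjusted p below 0.05 was reached there by 833 genes upward and 710 downward. Without empty-vector replicate 1 the calls were 154 higher and 172 lower, and with no filter on low counts 56 and 40. Calls by DESeq2 numbered 106 upward and 2 downward, and by limma-voom 13 and 0. With library totals in place of TMM, the calls split into 5720 higher and 339 lower for the empty vector over untreated cells, and into 2320 and 180 for the FOXF1 plasmid over untreated cells.

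**Figure D2:**
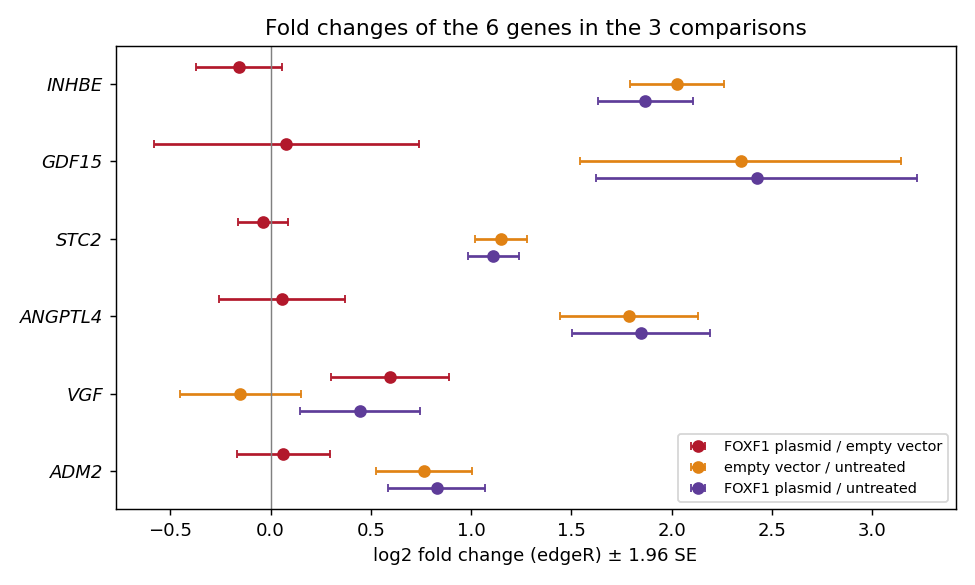
Fitted log2 fold changes (edgeR) of the 6 genes in the 3 comparisons, with bars that span the approximate 95% interval. INHBE, ANGPTL4, STC2 and VGF were picked for their changes in these comparisons, so their bars are a description and no test against 0. INHBE, GDF15, STC2, ANGPTL4 and ADM2 lie at 0.77 to 2.42 in both comparisons with untreated cells and within 0.16 of 0 between the FOXF1 plasmid and the empty vector, while VGF lies at 0.60 between the FOXF1 plasmid and the empty vector.

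The mitochondrial share of reads, given above, differed between the groups. With library totals that leave out the mitochondrial genes, the log2 fold change of the empty vector over untreated cells was 2.11 for INHBE, 2.43 for GDF15, 1.23 for STC2, 1.87 for ANGPTL4, 0.85 for ADM2 and -0.07 for VGF, beside a median of 0.12 over all genes. These are as large as with TMM scaling for the 5 genes that were higher. VGF over the empty vector in the FOXF1 plasmid group was then 0.55.

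Levels per kilobase of exon allow only a rough comparison of genes. All annotated exons were counted, and which of them the cells use is not known. STC2 led in every group on this scale. It had 16.8 CPM per kb with the FOXF1 plasmid, 17.3 with the empty vector and 7.78 in untreated cells. With the FOXF1 plasmid the order went on with INHBE at 6.59, ANGPTL4 at 6.39, ADM2 at 3.15, VGF at 2.63 and GDF15 at 0.709 CPM per kb. With the empty vector it was INHBE at 7.34, ANGPTL4 at 6.14, ADM2 at 3.01, VGF at 1.74 and GDF15 at 0.668 CPM per kb. INHBE and ANGPTL4 overlapped with the FOXF1 plasmid, at 5.58 to 7.19 and 5.19 to 7.18 CPM per kb, but not with the empty vector, at 6.89 to 7.91 and 5.32 to 6.71 CPM per kb. In untreated cells VGF, INHBE, ANGPTL4 and ADM2 lay together at 1.93, 1.80, 1.78 and 1.77 CPM per kb with overlapping ranges, and GDF15 was at 0.131. With the empty vector those 4 genes ranged from 1.74 to 7.34 CPM per kb. INHBE, ANGPTL4 and VGF were picked for their changes between these groups, so nothing is read from that range.

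**Figure D3:**
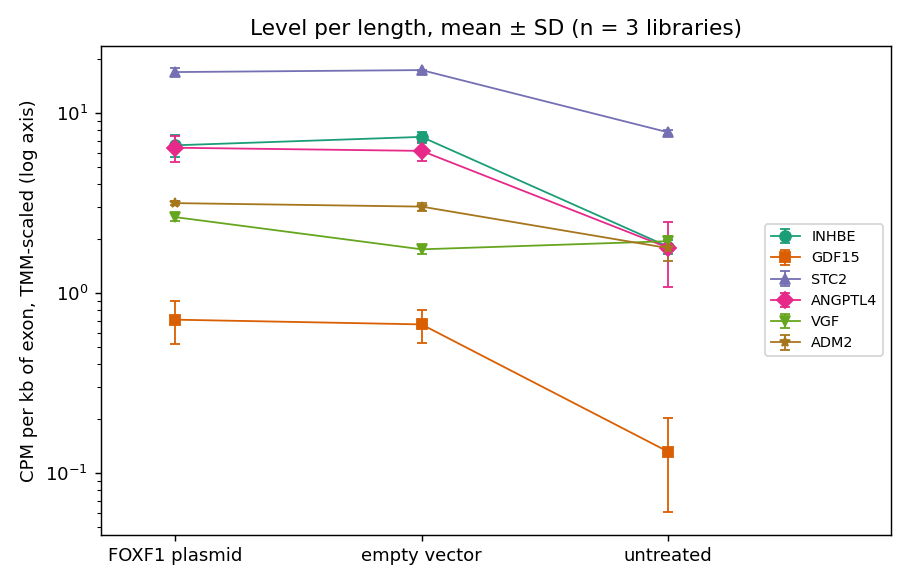
Mean level of each gene in CPM per kb of exon on TMM-scaled libraries, on a log axis, with bars of 1 SD over the 3 libraries of each group; lines only join the points of a gene. INHBE, ANGPTL4, ADM2 and VGF lie together near 1.8 to 1.9 in untreated cells and over a wider range with the FOXF1 plasmid and the empty vector. INHBE, ANGPTL4 and VGF were picked for their changes between these groups.

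Pattern neighbours were the 3 named genes with the highest Pearson correlation to each member across the 9 libraries, on log2 of CPM plus 0.5. All points share the same 3 groups, so these values describe a group pattern and carry no p. They also do not measure the size of a change. Nearest to INHBE were RIMKLA (r = 0.994), RETSAT (0.99), a retinol saturase, and HSPA5 (0.99), the main chaperone of the endoplasmic reticulum. HSPA5 averaged 951, 1032 and 541 CPM with the FOXF1 plasmid, with the empty vector and in untreated cells. RETSAT averaged 63.05, 63.55 and 52.93 CPM in the same order. STC2 ran closest to NDRG1 (r = 0.997), a gene induced by low oxygen and other stresses, at 387, 427 and 120 CPM in the same order of groups. CA9 (0.994), a carbonic anhydrase induced by low oxygen, and ZNF395 (0.993) came next. For ANGPTL4 they were MIR210HG (0.99), host of a microRNA induced by low oxygen, PFKFB4 (0.988), a regulator of glycolysis, and ANKZF1 (0.985).

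ADM2 had as neighbours DUSP6 (r = 0.976), a phosphatase that acts on ERK, PNCK (0.97) and TRIM9 (0.968). The nearest to VGF were DYRK1B (0.957), a protein kinase, FOXF1 (0.917) and CCDC92 (0.909), all lower than the leading values of the other genes. DYRK1B averaged 29.55, 26.18 and 26.88 CPM with the FOXF1 plasmid, with the empty vector and in untreated cells. The FOXF1 plasmid libraries with 367, 184 and 141 FOXF1 reads had 7.25, 6.74 and 7.38 CPM of VGF. GDF15 was below the level set for this search, a mean log2 CPM of 1.

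Partners and relatives of each factor were counted in lists without the 6 genes themselves, chosen with earlier results of these data known. Of the 98 tested genes on all the lists, each counted once, edgeR called 43 higher and 5 lower with the empty vector over untreated cells, and 34 higher and 3 lower with the FOXF1 plasmid over untreated cells. Between the FOXF1 plasmid and the empty vector it called 0 of the 98 in either direction, with 2 higher and 13 lower at an unadjusted p below 0.05, and 0 by DESeq2 and by limma-voom. Without empty-vector replicate 1, 4 were called lower, LOX, MDM2, EIF2AK2 and P4HA1 (edgeR, adjusted p = 0.00199, 0.0134, 0.0377 and 0.0482). With no filter on low counts LOX, MDM2 and IGFBP3 were, and without untreated replicate 1 LOX was. The counts that follow are for the empty vector over untreated cells unless another comparison is named. Over all genes tested, 10.2% were called higher and 9.37% lower in that comparison. The shares were 4.63% and 3.89% for the FOXF1 plasmid over untreated cells, and 0.055% and 0% for the FOXF1 plasmid over the empty vector. A single called gene in a small list is near those shares and is not read as a result about the list.

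Among activin and inhibin ligands, antagonists and receptors, 1 of 11 tested genes was called higher and 0 lower, with a median log2 fold change of 0.06. The called gene was SMAD4, the shared mediator of the superfamily, at 0.48 (edgeR, adjusted p = 0.0305), a call lost without any of the 3 untreated replicates in turn and without empty-vector replicate 2 or 3. In those 5 fits 0 genes of the list were called, and with library totals in place of TMM 4 were. With the FOXF1 plasmid over untreated cells 0 were called in either direction, and SMAD4 was at 0.16 (edgeR, adjusted p = 0.616). INHBC, a neighbouring subunit gene made in liver, had at most 10 reads per library, and INHBA at most 2. INHBB averaged 1.53, 1.68 and 1.08 CPM with the FOXF1 plasmid, with the empty vector and in untreated cells (edgeR, adjusted p = 0.138 for the empty vector over untreated cells). Of the receptors, ACVR1C, which is known to receive activin E in fat cells, had 0 to 5 reads, while ACVR1B averaged 30.4, 33.4 and 29.3 CPM in the same order of groups.

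In the GDF family with the GDF15 receptor, edgeR, DESeq2 and limma-voom called 0 of 6 tested genes, and 0 were higher and 1 lower at an unadjusted p below 0.05. The median log2 fold change was -0.22. GFRAL had 0 reads in all 9 libraries. RET, its signalling partner, averaged 5.18, 4.79 and 5.38 CPM with the FOXF1 plasmid, with the empty vector and in untreated cells.

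The enzymes that cut and trim such precursors had 1 of 8 tested genes higher and 0 lower, with a median of 0.06. This was CPE, a carboxypeptidase of peptide hormone processing, at 20.7 ± 0.339, 23.5 ± 1.38 and 12.9 ± 2.16 CPM with the FOXF1 plasmid, with the empty vector and in untreated cells (SD, n = 3 each). It rose by 0.87 ± 0.106 on the log2 scale with the empty vector (edgeR, adjusted p = 7.49e-07) and by 0.68 ± 0.107 with the FOXF1 plasmid (adjusted p = 6.74e-05), both over untreated cells. FURIN, which matures ligands of the TGF-beta superfamily, was at 159, 160 and 164 CPM. PCSK1, which cuts VGF and other prohormones in endocrine cells, was at 1.42, 1.98 and 1.15 CPM in the same order (edgeR, adjusted p = 0.086 for the empty vector over untreated cells). With library totals in place of TMM 5 genes of this list were called higher.

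On the stanniocalcin side, 1 of 3 tested genes was higher and 0 lower, with a median of -0.03. STC1, the paralog of STC2, averaged 10.1 ± 1.61, 9.91 ± 1.06 and 4.84 ± 0.407 CPM with the FOXF1 plasmid, with the empty vector and in untreated cells (SD, n = 3 each). STC1 rose by a log2 fold change of 1.03 ± 0.146 with the empty vector (edgeR, adjusted p = 6.44e-06) and 1.06 ± 0.147 with the FOXF1 plasmid (adjusted p = 1.02e-05), both over untreated cells. PAPPA, which encodes the protease that STC2 inhibits, was at 1.68, 1.60 and 2.001 CPM and was not called (edgeR, adjusted p = 0.411 for the empty vector). Its substrate gene IGFBP4 was abundant, at 943, 896 and 917 CPM.

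Angiopoietin-like and lipase genes other than ANGPTL4 had 4 of 12 members tested. None was called by edgeR, DESeq2 or limma-voom, and 0 had an unadjusted p below 0.05 (median 0.08). LPL, which encodes the lipase that ANGPTL4 inhibits, had 0 to 8 reads per library, and its anchor GPIHBP1 had 0 reads.

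The list of PPAR factors, known regulators of ANGPTL4, and their targets had 2 of 7 tested genes higher and 1 lower, with a median of 0.16. PPARA rose by 0.53 on the log2 scale (edgeR, adjusted p = 0.00458), and SLC25A20, a carnitine carrier, by 0.53 (adjusted p = 0.0115), a call lost without untreated replicate 2. PPARD was called lower, at -0.21 (edgeR, adjusted p = 0.0156), but was at 0.03 and not called with library totals in place of TMM, and also lost the call without untreated replicate 1 or empty-vector replicate 2. PLIN2, a lipid droplet gene that PPARs induce, had at most 16 reads per library. Counts of the list ran from 1 higher without untreated replicate 2 to 4 higher with library totals. With the FOXF1 plasmid over untreated cells 0 were called in either direction. PPARA was then at 0.20 and SLC25A20 at 0.26 (edgeR, adjusted p = 0.423 and 0.333).

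Calcitonin family genes and receptors had 1 of 3 tested genes higher and 1 lower. ADM, the paralog of ADM2, averaged 13.5 ± 2.57, 14.3 ± 1.6 and 6.16 ± 0.845 CPM with the FOXF1 plasmid, with the empty vector and in untreated cells (SD, n = 3 each). It rose by a log2 fold change of 1.21 ± 0.142 with the empty vector (edgeR, adjusted p = 3.36e-07) and 1.14 ± 0.143 with the FOXF1 plasmid (adjusted p = 2.55e-06), both over untreated cells. The receptor gene CALCRL had 0 or 1 read per library and CALCR 0. Of the partners that set ligand preference, RAMP2 fell by 0.48 on the log2 scale with the empty vector (edgeR, adjusted p = 5.33e-05), to 24.9 CPM, against 34.8 CPM in untreated cells. RAMP1 was at 23.1, 20.5 and 17.6 CPM with the FOXF1 plasmid, with the empty vector and in untreated cells (edgeR, adjusted p = 0.101 for the empty vector over untreated cells). RAMP1 was called higher with the FOXF1 plasmid over untreated cells, at 0.40 (adjusted p = 0.00708), a call lost without untreated replicate 2 or FOXF1 plasmid replicate 1.

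Granin and neuroendocrine prohormone genes, the relatives of VGF, had 1 of 4 tested genes higher and 0 lower, with a median of 0.91. SCG2, a granin of secretory granules, averaged 40.1 ± 1.38, 43.2 ± 4.42 and 22.3 ± 2.29 CPM with the FOXF1 plasmid, with the empty vector and in untreated cells (SD, n = 3 each). SCG2 rose by 0.95 ± 0.087 on the log2 scale with the empty vector (edgeR, adjusted p = 4.44e-09) and 0.84 ± 0.088 with the FOXF1 plasmid (adjusted p = 1.16e-07), both over untreated cells. Unlike VGF, its level with the FOXF1 plasmid was not above that with the empty vector. CHGA, the defining granin, had 0 to 9 reads per library.

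Integrated stress response factors and targets had 16 of 18 tested genes higher and 1 lower, at a median log2 fold change of 0.69. With the FOXF1 plasmid over untreated cells 14 were higher and 0 lower, at 0.59. ATF4 averaged 304 ± 14, 313 ± 18.9 and 217 ± 10.3 CPM with the FOXF1 plasmid, with the empty vector and in untreated cells (SD, n = 3 each; edgeR, adjusted p = 7.49e-07 for the empty vector over untreated cells). The largest rises were SLC7A11, a cystine transporter, at 1.87, CTH, an enzyme of cysteine synthesis, at 1.07, and NUPR1, a stress-induced chromatin protein, at 0.97 (edgeR, adjusted p = 0.0014, 0.000799 and 3.03e-09). DDIT3, which encodes CHOP, rose by 0.86 (adjusted p = 5.31e-05). ATF5 fell by 0.44 on the log2 scale (edgeR, adjusted p = 0.000952), but was at -0.19 and not called with library totals in place of TMM. PHGDH, an enzyme of serine synthesis, was at -0.02 (adjusted p = 0.871).

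The eIF2alpha kinases and stress sensors had 4 of 7 tested genes higher and 1 lower, at a median of 0.35. ATF6, a sensor of unfolded proteins, rose by 0.56, XBP1 by 0.54 and EIF2AK3, which encodes PERK, by 0.45 (edgeR, adjusted p = 0.000759, 1.41e-06 and 0.0172). EIF2AK1, which encodes the haem-regulated kinase, fell by 0.34 (adjusted p = 0.000365), but was at -0.09 and not called with library totals in place of TMM. The count higher was 2 without untreated replicate 1, untreated replicate 2 or empty-vector replicate 2, fits in which EIF2AK3 was not called, and 6 with library totals. With the FOXF1 plasmid over untreated cells 2 were higher and 1 lower, and EIF2AK3 was not called, at 0.30 (edgeR, adjusted p = 0.188).

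Hypoxia-inducible factor targets had 11 of 12 tested genes higher and 0 lower, at a median of 0.82, and 10 higher with the FOXF1 plasmid over untreated cells. NDRG1 rose most, by 1.83 ± 0.067 on the log2 scale, followed by LOX, a collagen crosslinker, at 1.22 and ADM at 1.21 (edgeR, adjusted p = 4.29e-18, 4.53e-10 and 3.36e-07). ANKRD37 was the gene not called, at 0.19 (adjusted p = 0.829). Leaving out any library kept the count with the empty vector at 11.

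The p53 targets, relevant because GDF15 is a known p53 target, had 4 of 10 tested genes higher and 0 lower, at a median of 0.36. BBC3 rose by 0.70, GADD45A by 0.39 and CDKN1A by 0.37 (edgeR, adjusted p = 0.000454, 0.0143 and 0.00058), while MDM2 was at 0.36 (adjusted p = 0.167). The count was 2 without untreated replicate 1 and 7 with library totals, and GADD45A lost its call without untreated replicate 1 or empty-vector replicate 3. With the FOXF1 plasmid over untreated cells 2 were higher and 0 lower, and GADD45A was not called, at 0.315 (edgeR, adjusted p = 0.0863). Other stress-induced secreted factors had 3 of 7 tested genes higher and 1 lower. IGFBP1 rose by 3.03 ± 0.457 on the log2 scale, to 1.25 ± 0.488 CPM with the empty vector, against 0.149 ± 0.0838 CPM in untreated cells (SD, n = 3 each; edgeR, adjusted p = 1.58e-05). IGFBP3 rose by 1.52 and VEGFA by 0.80 (adjusted p = 1.03e-10 and 6.42e-10), and the chemokine gene CCL2 fell by 1.22 (adjusted p = 0.00641). FGF21, a stress hormone of the liver, had at most 7 reads per library.

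**Figure D4:**
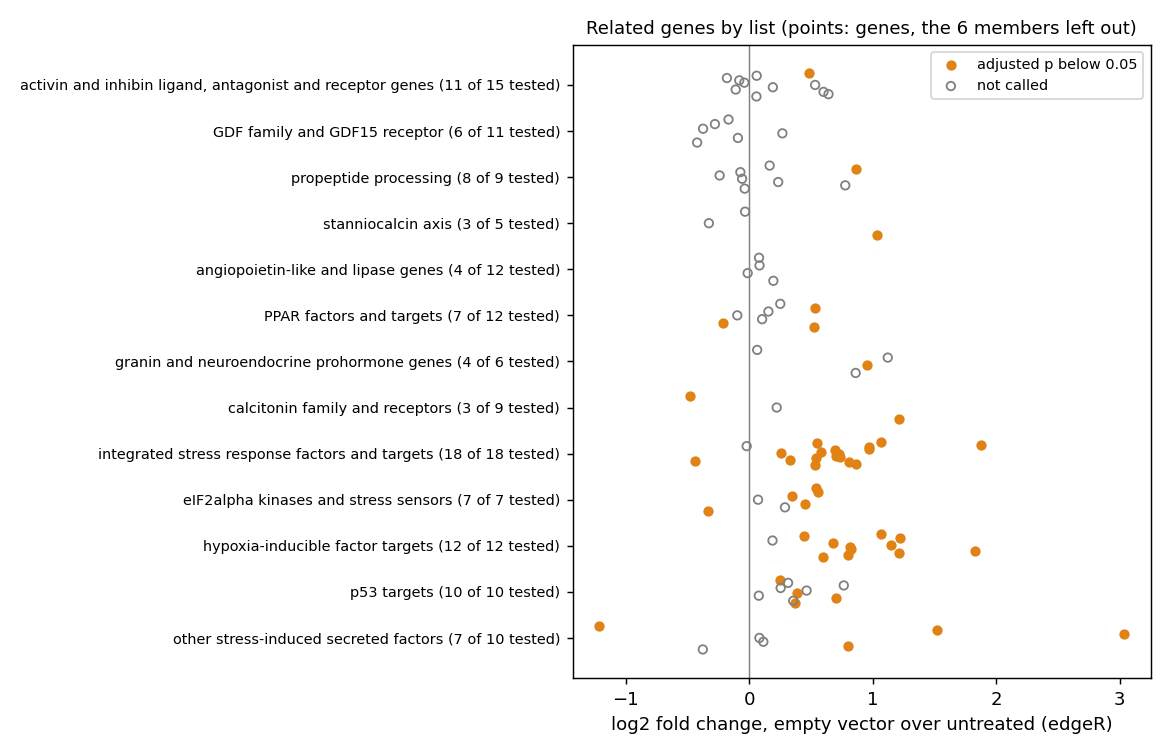
Log2 fold change of the empty vector over untreated cells (edgeR) for each tested gene of the 13 lists, with the 6 factors left out; filled points have an adjusted p below 0.05 and open points do not. Filled points to the right of 0 make up 16 of 18 integrated stress response genes and 11 of 12 hypoxia-inducible factor targets, and 0 of 6 genes of the GDF family. The lists were chosen with earlier results of these data known. ADM and VEGFA are drawn among the hypoxia-inducible factor targets and again in the calcitonin list and the list of other secreted factors, in that order. Over all genes tested, 10.2% were called higher.

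Markers of cell types in which these factors are known were set beside them. The summed level of 5 hepatocyte markers was 83 to 93.1 CPM with the FOXF1 plasmid, 72.2 to 84.5 CPM with the empty vector and 67.3 to 74.7 CPM in untreated cells, nearly all from SERPINA1, while ALB had at most 2 reads and TTR 0. SERPINA1 was called higher with the FOXF1 plasmid over untreated cells, at 0.30 (edgeR, adjusted p = 0.00675), a call lost without untreated replicate 1 or FOXF1 plasmid replicate 2. Of 5 neuroendocrine markers, ENO2 rose by 0.25 and SYP by 0.35 with the empty vector (edgeR, adjusted p = 0.00441 and 0.00989), the call of SYP being lost without untreated replicate 2 or empty-vector replicate 2. Their list summed to 216 to 233 CPM with the FOXF1 plasmid, 216 to 234 CPM with the empty vector and 180 to 194 CPM in untreated cells, with INSM1 at 0 reads. VGF did not share this order, since its empty-vector range overlapped the untreated one. Adipocyte markers summed to 3.35 to 4.17, 2.56 to 4.04 and 2.61 to 2.89 CPM in the same order of groups, with ADIPOQ and LEP at 0 reads. Trophoblast markers summed to 12 to 12.7, 12.3 to 14.2 and 10.2 to 12.9 CPM, with CGA, CGB3 and PSG1 at 0 reads. Fibroblast markers summed to 1494 to 1737, 1454 to 1518 and 1079 to 1283 CPM, nearly all from COL1A1, which was called higher in both transfected groups over untreated cells, with COL1A2 at 0 reads. The COL1A1 call with the empty vector was lost without untreated replicate 2. Endothelial and leukocyte markers stayed at or below 0.933 and 0.22 CPM per library.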

How the data were processed

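RNA sequencing read counts were used from 9 libraries in 3 groups. The deposited values are raw counts per Ensembl gene, per the file headers, with 64253 genes, of which 56591 have an entry in GENCODE 29 on GRCh38, the source of coordinates and exon lengths. CPM values were computed from the counts. Libraries came from a stranded mRNA kit per the labels' protocols. The submitters' processing notes name bcl2fastq, STAR 2.5.2b, HTSeq and GRCh38. Not given in the sources used here are the strand setting, the annotation release and any trimming, so reads of a gene and an antisense partner may not be separated.

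For the analysis (edgeR 4.0.16, R 4.3.3), filterByExpr with a minimum count of 10 kept 16366 genes. A model with a mean per group was fitted to all 9 libraries with TMM factors. Each gene had a quasi-likelihood F test, adjusted by Benjamini-Hochberg over all genes and called at 0.05. The standard error (SE) is the absolute log2 fold change over the square root of F, and approximate 95% intervals are the normal ones. The common biological coefficient of variation was 0.101, and libraries of a group differed beyond sampling noise (chi-square over its degrees of freedom 8.6 to 23.2). The test was checked on simulated data with the same spread for all genes. Rises were planted only in genes of a higher mean level than GDF15, so the check does not cover that gene.

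The 6 genes and all lists were chosen with earlier results of these data known. Named from each list were up to 3 called genes per direction with the largest change and the direct partners of a factor; other genes named were chosen after their values were seen. Motif searches used RefSeq promoter windows (GRCh38.p14). Alternatives were DESeq2 1.42.0, limma-voom (limma 3.58.1), other scalings, other filters, a replicate block and leaving out each library. Some items are not reported here.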

Additional observations from a re-analysis of the deposited data

How the results depend on the processing

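Each result was recomputed under 18 alternatives. Of the 18 values of the 6 genes, 9 kept their call, or moved by less than the replicate spread, in every alternative that gave a value. DESeq2 gave no adjusted p for GDF15 and ADM2 between the FOXF1 plasmid and the empty vector, nor for GDF15 between the FOXF1 plasmid and untreated cells, where its unadjusted p was 1.88e-08. With library totals alone, the log2 fold change of the empty vector over untreated cells was 2.273 for INHBE, 1.395 for STC2 and 0.093 for VGF, whose sign thus turned. The FOXF1 plasmid over the empty vector gave -0.135 for STC2 and 0.5 for VGF, and over untreated cells 1.26 and 0.593. The calls over all genes were then 6059 for the empty vector over untreated cells, against 3209, and 2500 for the FOXF1 plasmid over untreated cells, against 1394. Totals without mitochondrial genes gave STC2 1.229 for the empty vector over untreated cells and -0.088 for the FOXF1 plasmid over the empty vector. Between the FOXF1 plasmid and the empty vector, the 9 calls became 16 with RLE factors, 108 with DESeq2 and 96 with no filter. Leaving out each library in turn gave from 1 (without FOXF1 plasmid replicate 2) to 326 (without empty-vector replicate 1) there, with 2 without empty-vector replicate 2, and 23 and 16 without untreated replicates 1 and 3. It gave 2092 to 3898 for the empty vector over untreated cells, lowest without empty-vector replicate 2, and 817 to 1729 for the FOXF1 plasmid over untreated cells, lowest without untreated replicate 2, with 883 without untreated replicate 1 and 927 and 875 without FOXF1 plasmid replicates 2 and 3. ANGPTL4 then ran from 1.612 to 2.148 and from 1.668 to 2.204 over untreated cells for the empty vector and the FOXF1 plasmid, highest without untreated replicate 1, and STC2 from 1.056 to 1.135 for the FOXF1 plasmid. The cause was not tested.

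A replicate block gave 16 calls between the FOXF1 plasmid and the empty vector and changed no call of GDF15 or ADM2. Same-numbered libraries did not deviate together more than others (correlations -0.153 to 0.143, with 1 of 9 pairs above 0.1). Pairs with different numbers had correlations of -0.128 to 0.208. With 3 libraries per group such a check cannot exclude a shared day or culture, which the labels do not state. Depth limits GDF15 most, with 4 to 73 reads per library.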
